A study of Mus musculus with 2 samples.

Results

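The genes described here are 8 genes of the interleukin-17 effector program: the cytokine genes Il17a, Il17f and Il22, the receptor genes Il23r, Il1r1 and Ccr6, the kinase gene Blk and the scavenger receptor gene Cd163l1. They were named as a set, and for each gene every Notch1 peak was taken that overlapped the gene body or lay within 50 kb of any annotated start site. The rule took 12 of the 5913 deposited peaks, and it gave at least 1 peak to 6 of the 8 genes. By the same rule 31.7% of all 21938 protein-coding genes had a peak. The set was chosen with earlier results of these data known, so its share describes these genes and is not independent evidence about the program.

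The series holds 1 library precipitated with a rabbit monoclonal antibody against Notch1 (clone D1E11) and 1 input library made without antibody. Both were made from thymic gamma delta T cells, taken directly from newborn mice (postnatal day 0 to 3) of the C57BL/6 strain with a wild type genotype, and the stated aim was to locate binding of the intracellular domain of Notch1. With 1 Notch1 library there was no replicate, no test between conditions was possible, and no p-value is given. The input is not analysed here. The read depth is unknown, and the number of animals behind the library is not given in the sources used here. A peak list measures no RNA, so the labelled cell type was not checked against its marker genes.

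Some gamma delta T cells leave the thymus already committed to making interleukin-17, and in mice many of these arise around birth. Interleukin-23 and interleukin-1, acting through the receptors encoded by Il23r and Il1r1, drive such cells to release IL-17A, IL-17F and IL-22, which act on epithelial and stromal cells to recruit neutrophils and strengthen barriers. Ccr6 encodes a chemokine receptor that guides the cells, Blk a Src-family kinase needed for their development in mice, and Cd163l1 (also named Scart1) a scavenger receptor that marks them. Notch1 is a surface receptor whose cleaved intracellular domain acts on chromatin through the DNA-binding protein RBPJ.

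Sequences under 7 of the 12 peaks are shown because they cover the peak of highest score at each bound gene, both peaks between Il17a and Il17f, and the 3 peaks with an RBPJ core in the centre. Each is the central 300 bp of its peak on the plus strand of mm10, read 5′ to 3′ from the reference genome. Peaks are named by the member with the nearest start site and numbered along the chromosome. Capitals mark matches to any of the 15 short factor strings described further on, on either strand.
Il17a peak 1 (chr1:20740536-20740835): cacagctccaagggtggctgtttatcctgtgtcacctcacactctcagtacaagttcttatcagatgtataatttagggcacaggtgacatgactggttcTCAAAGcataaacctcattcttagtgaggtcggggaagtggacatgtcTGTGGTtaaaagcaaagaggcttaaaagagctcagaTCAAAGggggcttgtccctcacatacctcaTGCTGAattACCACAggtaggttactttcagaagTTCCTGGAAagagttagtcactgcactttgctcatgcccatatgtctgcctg
Il17a peak 2 (chr1:20751148-20751447): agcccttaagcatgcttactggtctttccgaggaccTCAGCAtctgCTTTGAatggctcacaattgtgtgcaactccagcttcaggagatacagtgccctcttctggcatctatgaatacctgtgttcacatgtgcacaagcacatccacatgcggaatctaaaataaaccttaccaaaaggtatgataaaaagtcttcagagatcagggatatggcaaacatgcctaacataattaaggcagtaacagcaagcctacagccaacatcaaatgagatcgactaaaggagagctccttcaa
Il17f peak 1 (chr1:20783417-20783716): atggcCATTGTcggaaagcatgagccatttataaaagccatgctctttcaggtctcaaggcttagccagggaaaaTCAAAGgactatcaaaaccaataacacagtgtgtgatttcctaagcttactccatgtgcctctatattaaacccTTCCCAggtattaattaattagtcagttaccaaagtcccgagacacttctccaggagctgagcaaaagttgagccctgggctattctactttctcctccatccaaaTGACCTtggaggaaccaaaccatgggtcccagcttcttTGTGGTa
Il1r1 peak 2 (chr1:40271224-40271523): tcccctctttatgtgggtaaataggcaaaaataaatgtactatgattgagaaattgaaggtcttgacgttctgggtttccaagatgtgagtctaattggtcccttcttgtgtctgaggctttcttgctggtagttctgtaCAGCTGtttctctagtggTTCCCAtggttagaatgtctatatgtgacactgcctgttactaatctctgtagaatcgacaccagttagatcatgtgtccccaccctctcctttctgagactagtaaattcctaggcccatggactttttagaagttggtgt
Il22 peak 1 (chr10:118172152-118172451): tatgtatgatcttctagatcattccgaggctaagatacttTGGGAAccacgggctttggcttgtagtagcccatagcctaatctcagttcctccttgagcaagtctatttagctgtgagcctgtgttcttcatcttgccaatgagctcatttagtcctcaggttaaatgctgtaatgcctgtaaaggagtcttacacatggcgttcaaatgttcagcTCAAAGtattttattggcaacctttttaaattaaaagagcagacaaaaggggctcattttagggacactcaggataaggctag
Blk peak 2 (chr14:63377196-63377495): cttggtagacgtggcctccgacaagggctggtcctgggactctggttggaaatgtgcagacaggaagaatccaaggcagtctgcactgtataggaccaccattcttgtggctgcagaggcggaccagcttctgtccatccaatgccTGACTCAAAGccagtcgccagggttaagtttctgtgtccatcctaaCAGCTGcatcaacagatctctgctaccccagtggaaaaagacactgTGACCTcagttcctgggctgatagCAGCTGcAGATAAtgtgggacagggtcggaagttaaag
Cd163l1 peak 2 (chr7:140215673-140215972): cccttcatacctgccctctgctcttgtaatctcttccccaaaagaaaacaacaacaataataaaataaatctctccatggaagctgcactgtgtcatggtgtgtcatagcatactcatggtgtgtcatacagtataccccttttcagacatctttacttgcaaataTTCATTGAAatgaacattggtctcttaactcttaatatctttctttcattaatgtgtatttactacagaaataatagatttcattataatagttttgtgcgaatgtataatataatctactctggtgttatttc
The Il1r1 peak is only 255 bp wide, so its printed window starts 22 bases before the peak.

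The cytokine genes Il17a and Il17f lie tail to tail on chromosome 1, with 42.6 kb between their 3′ ends and no other GENCODE gene in that interval. Their products are related cytokines that pair with themselves and with each other. The interval held 2 peaks, both closer to Il17a. Il17a peak 1 spanned 20740404 to 20740967 (564 bp, the widest of the 12) with a score of 1022, which ranked it 981 in the list. The score is the authors' own value, and no header or label states what it measures, so here it only orders the peaks. It began 5.91 kb past the end of Il17a and 9.50 kb downstream of its start site, and it ended 36.18 kb short of the 3′ end of Il17f. Il17a peak 2 spanned 20751093 to 20751502, scored 781 (rank 2272) and lay 20.19 kb downstream of the Il17a start. It was separated from the first by 10.12 kb. Both peaks also fell in the window of Il17f, at 38.59 and 28.05 kb from its nearest annotated start site, so they count for both genes and cannot be assigned to either by position alone. Upstream of Il17a the 50 kb window held no peak.

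Il17f had 1 further peak of its own, which had the lowest score of the 12. Il17f peak 1 spanned 20783405 to 20783727 (323 bp), scored 532 and ranked 5614, so that 94.9% of nuclear peaks scored higher. It lay wholly in intron 1 of the 3-exon coding transcript, 543 bp downstream of that transcript's start at 20784270, and overlapped 0 bp of exon. In a longer 5-exon GENCODE transcript that starts at 20790617, the same bases are intron 3. This peak was 52.50 kb from the Il17a start and therefore just outside the Il17a window. The next peak beyond the locus on the Il17f side was 1190.72 kb from an Il17f start site.

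Il22, on chromosome 10, had 1 peak, at a distance. Il22 peak 1 spanned 118172143 to 118172460, scored 627 (rank 4832) and lay 32.48 kb upstream of the single Il22 start site. Another gene was nearer to it, since the start of Mdm1 lay 15.13 kb away, and the peak overlapped no annotated gene. C57BL/6 mice carry a near-identical copy of Il22 named Iltifb, so reads from both copies could be hard to place. Within this peak 0 of 287 strings of 32 bases occurred more than once in the assembly. The rest of the Il22 window, with the gene itself, was not checked in this way. The next peak on the chromosome outside the window was 353.13 kb from Il22.

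The receptor genes divided: Il1r1 held 3 peaks, and Il23r and Ccr6 held 0. Il1r1 encodes the signalling receptor for interleukin-1 and has an outer start site at 40225080 and an inner cluster that begins at 40266586. Il1r1 peak 2 (40271246 to 40271500, score 978, rank 1160) and Il1r1 peak 3 (40284081 to 40284348, score 736, rank 2697) both followed the inner start, at 4.66 and 17.50 kb from it by protein-coding transcripts. In both 11-exon coding transcripts they lay in intron 1 and intron 2. Il1r1 peak 1 (40190249 to 40190503, score 924, rank 1381) lay 34.58 kb upstream of the outer start in sequence with no annotated gene. It was the only peak of the 12 with most of its bases soft-masked as repeats (58.0%), and 29 of its 224 strings of 32 bases occurred elsewhere in the assembly. Just outside the window, a peak of score 658 lay 57.65 kb from an Il1r1 start site.

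Il23r, which encodes the chain specific to the interleukin-23 receptor, had no peak in its 68924 bp gene body or within 50 kb of its start at 67491855. The nearest peak was 152.13 kb from that start, spanned 67339427 to 67339729 (score 746, rank 2582), and covered a start site of the neighbouring gene Il12rb2, which encodes a chain of the interleukin-12 receptor. Il12rb2 had 3 peaks by the rule, the highest of them with a score of 859. For Ccr6, on chromosome 17, the nearest peak was 127.39 kb from the closest of 7 start sites. That peak (8372452 to 8372763, score 716) lay 56 bp from a start of the gene T2. Of all protein-coding genes, 56.8% had a nearer peak than Il23r and 51.9% a nearer one than Ccr6, which puts both close to the middle of the genome-wide distribution.

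**Figure D1:**
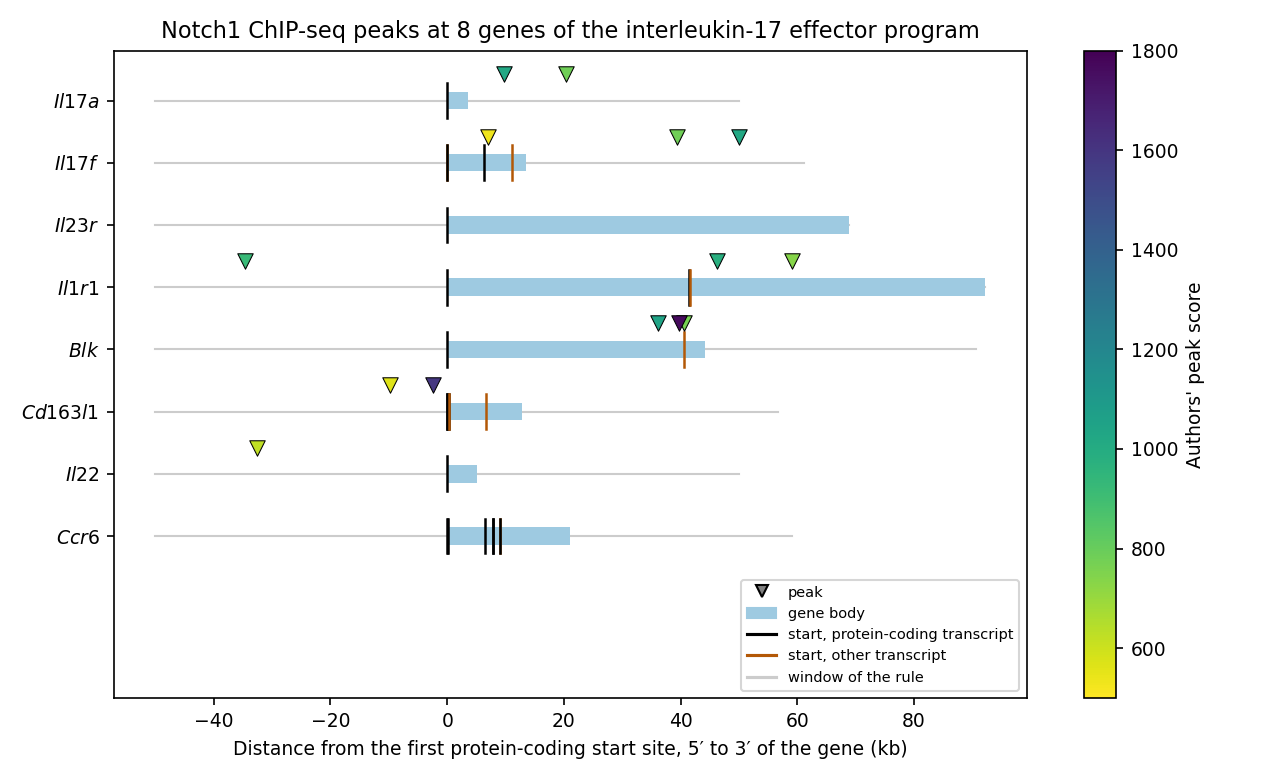
Notch1 peaks at the 8 genes, drawn by distance from the first protein-coding start site in the direction of transcription (kb). Triangles are peaks coloured by the authors' score, bars are gene bodies, and ticks are start sites. The 2 peaks between Il17a and Il17f are drawn in both of their rows, the 3 Blk peaks lie near the 3′ end of that gene, and Il23r and Ccr6 have none.

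The surface and kinase genes carried the 2 peaks of highest score. Blk peak 2 on chromosome 14 (63377108 to 63377582, 475 bp) scored 1768 and ranked 152, with 2.52% of nuclear peaks above it. It was flanked by Blk peak 1 (63376366 to 63376642, score 769, rank 2362) after a gap of 465 bp and by Blk peak 3 (63380852 to 63381083, score 1039, rank 925) after 3.27 kb. Together the 3 peaks spanned 4718 bp. Runs of 3 peaks within that span held 283 nuclear peaks (4.79%), while the median gap between neighbouring nuclear peaks was 202.5 kb; this comparison was chosen after the peaks were seen.

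The Blk peaks were far from the promoter of the kinase. The gene runs on the minus strand, its sole protein-coding start is at 63417037, and the peaks lay 40.40, 39.46 and 35.95 kb downstream of it. Blk peaks 1 and 2 were in intron 10 of the 13-exon coding transcript, and Blk peak 3 was in intron 7 except for 3 bp of exon 8. Blk counts as having a peak at 0 bp from a start site only because Blk peak 1 covers the start, at 63376418, of a 2-exon transcript that GENCODE classes as a retained intron. RefSeq lists 1 Blk transcript, without that start, and its nearest peak was 36.10 kb away. Fam167a was the next gene by start site, 55.31 kb from the closest of the 3 peaks. In Blk peak 1, 21 of 246 strings of 32 bases occurred elsewhere in the assembly, against 0 in the other 2.

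Cd163l1 peak 2 on chromosome 7 (140215587 to 140216058, 472 bp) scored 1593 and ranked 222. It lay 2.21 kb upstream of the first GENCODE start site at 140218267, and Cd163l1 was the gene with the nearest start. Cd163l1 peak 1 (140208285 to 140208646) lay 9.62 kb upstream with a score of 566 (rank 5438). It was nearer to the olfactory receptor gene Olfr524, whose start was 2.32 kb away. In GENCODE both peaks overlap no gene. In RefSeq the gene begins further upstream, at 140197218, through 1 predicted transcript of 13 exons, and both peaks fall in intron 1 of that transcript. Whether they are intergenic or intronic therefore depends on the annotation. The related gene 5830411N06Rik (Scart2) lies next to Cd163l1, and its window held the same 2 peaks and no other.

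By score the 12 peaks covered nearly the whole list. Their median score was 852, against 718 over all 5910 nuclear peaks. The count at or above the list's median was 9, and 6 were in the upper quartile: Blk peaks 2 and 3, Cd163l1 peak 2, Il17a peak 1 and Il1r1 peaks 1 and 2. The 3 lowest were Il17f peak 1, Cd163l1 peak 1 and Il22 peak 1. Ranked by their best peak, the genes ran Blk, Cd163l1, Il17a (which shares its peak with Il17f), Il1r1 and Il22. A score has no replicate error here, so the order describes this library only.

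**Figure D2:**
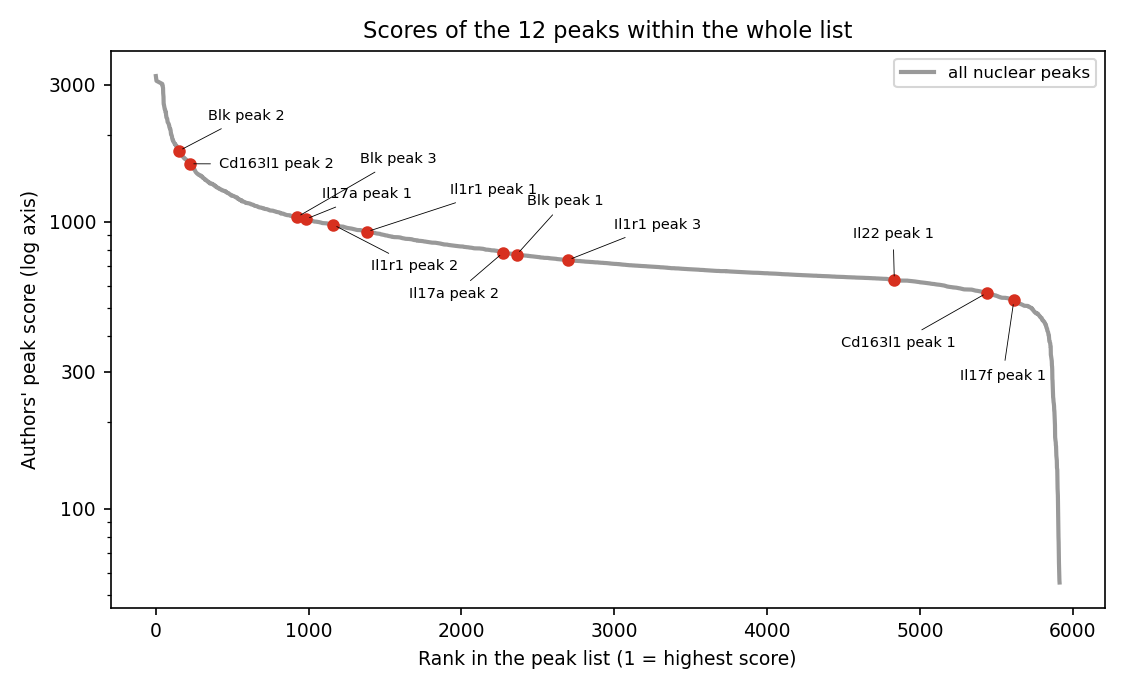
Authors' score (log axis) against rank for all nuclear peaks (grey line), with the 12 peaks at the 8 genes as red points. Blk peak 2 (score 1768) and Cd163l1 peak 2 (1593) sit on the steep upper end, and Il17f peak 1 (532) sits near the lower end.

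Most of these peaks were away from promoters of coding transcripts. Of the 12, 1 lay within 1 kb of the start of a protein-coding transcript (8.33%), against 16.97% of all nuclear peaks, and that was Il17f peak 1. The count beyond 5 kb of any such start was 8 (66.7%), against 71.2% of all nuclear peaks. In GENCODE 6 of the 12 overlapped a gene (50%), against 61.3% of all nuclear peaks. The median GC content was 45.4%, against 43.9% over the list, and ranged from 35.6% in Cd163l1 peak 2 to 57.8% in Blk peak 1. Strings of 32 bases that recur in the assembly were found in 4 of the 12 peaks, and they made up at most 12.9% of a peak.

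The number of peaks per gene was 2 for Il17a and Cd163l1, 3 for Il17f, Il1r1 and Blk, and 1 for Il22. Among all protein-coding genes 9.55% had at least 2 peaks by the rule and 3.49% at least 3, against 5 and 3 of the 8 members. Those member counts use the 2 peaks between Il17a and Il17f for both genes. With peaks counted only for the nearest start site, Il17f and Cd163l1 had 1 each and Il22 had 0. Il17a, Il1r1 and Blk were unchanged. The windows had a median length of 110.0 kb for the members and 104.2 kb for all genes. The merged windows of the 8 genes covered 0.877 Mb and held 13.7 peaks per Mb (exact Poisson 95% interval 7.07 to 23.9, counting error only). That interval takes the peaks as independent, although the 3 Blk peaks lay within 4718 bp, so it may be too narrow. Merged windows of all protein-coding genes held 2.83 peaks per Mb. How many of the 8 genes had a peak depended on the rule. The count was 4 with a window of 5 kb (13.9% of all protein-coding genes), 5 with 20 kb (20.2%) and 6 with 100 kb (46.2%). It was 5 for peaks at or above the median score (19.3%), 5 in the upper quartile (10.8%) and 5 when a peak counted only for the nearest start site (15.3%). It was 6 with start sites of coding transcripts only (30.6%), with peaks under 50% soft-masked (29.9%), with whole peaks in the window (31.6%) and with RefSeq genes (30.2%). At both score cut-offs Il17f counted only through peaks shared with Il17a. The median distance from a start site to the nearest peak was 7.04 kb for the members and 118.4 kb for all genes. For peaks at or above the median score it was 18.78 kb for the members and 233.6 kb for the 21755 genes on a chromosome with such a peak. With coding start sites only it was 20.99 kb for the members and 124.1 kb for all genes.

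**Figure D3:**
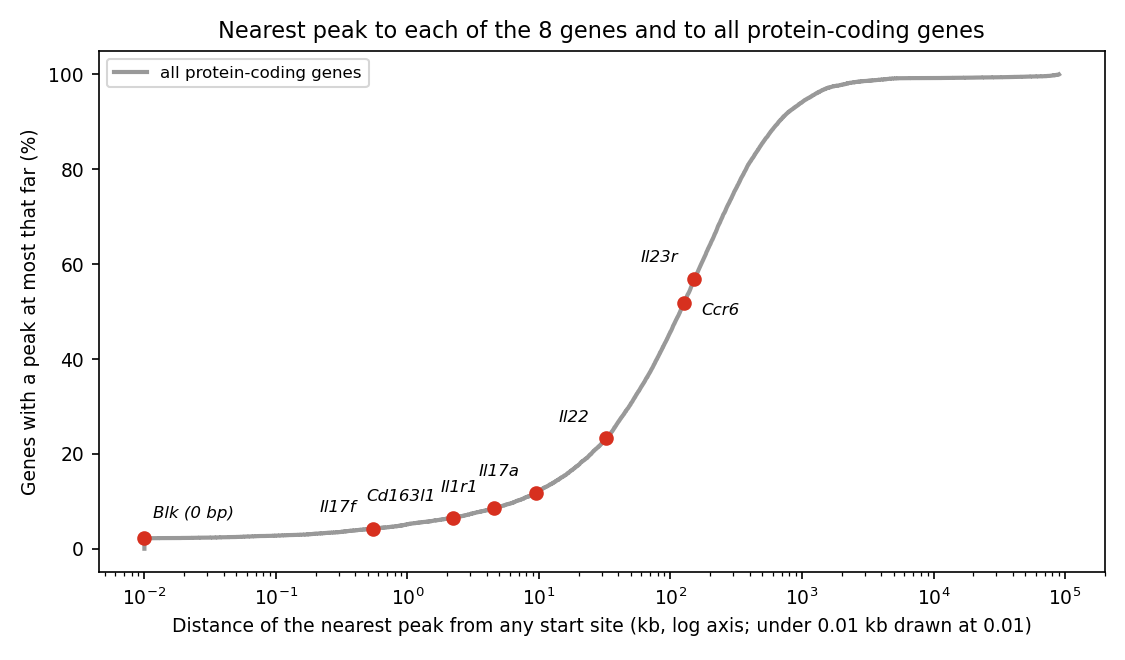
Share of protein-coding genes (%) whose nearest peak lies at most a given distance from a start site (kb, log axis, grey line), with the 8 genes as red points. Blk is drawn at the left edge because a peak covers a start site, and Ccr6 and Il23r lie beyond 120 kb, near the middle of the curve.

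Short strings bound by factors of this lineage were then searched in the central 300 bp of every peak, on both strands. The strings were TGGGAA for the RBPJ core, GTGGGAA for a longer RBPJ form that contains the core, TGTGGT for RUNX, CCGGAA for ETS, AGGTCA for ROR, ACAATG for SOX, CTTTGA for TCF and LEF, TGCTGA for MAF, TGACTCA for AP-1, AGATAA for GATA, TTCNNNGAA for STAT, CACGTG for the E-box of HES and MYC, CAGCTG for the E-box of E proteins and GTGGGCG for EGR, together with the consensus of NF-kB. Strings this short occur often by chance, so each count is given beside the share of all 5910 nuclear peaks and of 32851 RefSeq promoters of the same length. A match describes the letters and is no evidence of binding.

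The RBPJ core was present in 3 of the 12 peaks (25%), against 24.99% of all nuclear peaks and 25.6% of promoters. The 3 were Il17f peak 1, Il1r1 peak 2 and Il22 peak 1, with 1 core each, at position 150, 159 and 41 of the sequences printed above. The central 300 bp of every Blk, Cd163l1 and Il17a peak held 0 cores. Over whole peaks Blk peak 2 also held a core, at 63377520 to 63377525 and outside the printed window, and that match extended to the longer form. The 2 peaks between Il17a and Il17f held 0 cores over their full width, and the nearest cores were 294 and 102 bp outside them. At Cd163l1 the nearest core lay 606 bp outside the peak of higher score.

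Other strings were found in more or in fewer of the 12 than in the list. The TCF and LEF string was found in 7 of the 12 (58.3%), against 21.6% of all nuclear peaks and 16.00% of promoters, and both peaks between Il17a and Il17f and the Il17f intron peak were among them. The RUNX string was found in 5 (41.7%, against 23.2% of nuclear peaks), with 2 matches in Il17a peak 1. The ROR string, the core of the element read by the RORγt and RORα proteins that drive Il17a transcription in mice, was found in 4 (33.3%, against 17.5%): Il17f peak 1, Il1r1 peak 3 and Blk peaks 1 and 2. It was absent from both peaks between the cytokine genes. The STAT string was found in 3 (25%, against 9.39%), and it was the sole match in Cd163l1 peak 2.

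Il17f peak 1 and Blk peak 2 held matches to 5 of the 15 strings each, the most of the 12. In Il17f peak 1 these were RBPJ, RUNX, ROR, SOX and TCF and LEF. In Blk peak 2 they were ROR, GATA, AP-1, the E protein E-box with 2 copies, and TCF and LEF, whose match at position 151 overlaps the AP-1 match at position 147. The remaining strings were at or below a count of 3. The E protein E-box was found in 3 of the 12 (25%, against 13.2% of all nuclear peaks), AP-1 in 2 (16.7%, against 5.47%) and the HES and MYC E-box in 1 (8.33%, against 4.45%). MAF was found in 2 (16.7%, against 19.7%), GATA in 2 (16.7%, against 17.7%) and SOX in 1 (8.33%, against 17.1%). The longer RBPJ form, ETS, NF-kB and EGR were found in 0 of the 12, and in 6.19, 6.07, 3.65 and 2.18% of all nuclear peaks. In the central 100 bp the E protein E-box was found in 3 of the 12, against 4.79% of all nuclear peaks. TCF and LEF, RUNX and the RBPJ core were each found there in 2, against 7.31, 8.58 and 8.85%. STAT, AP-1 and the HES and MYC E-box were each found in 1, against 2.91, 2.01 and 1.42%. ROR, MAF, SOX and GATA were found there in 0, against 5.48, 6.79, 6.29 and 6.06%. The longer RBPJ form, ETS, NF-kB and EGR were also absent there. With 12 peaks and 15 strings none of these differences was tested.

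**Figure D4:**
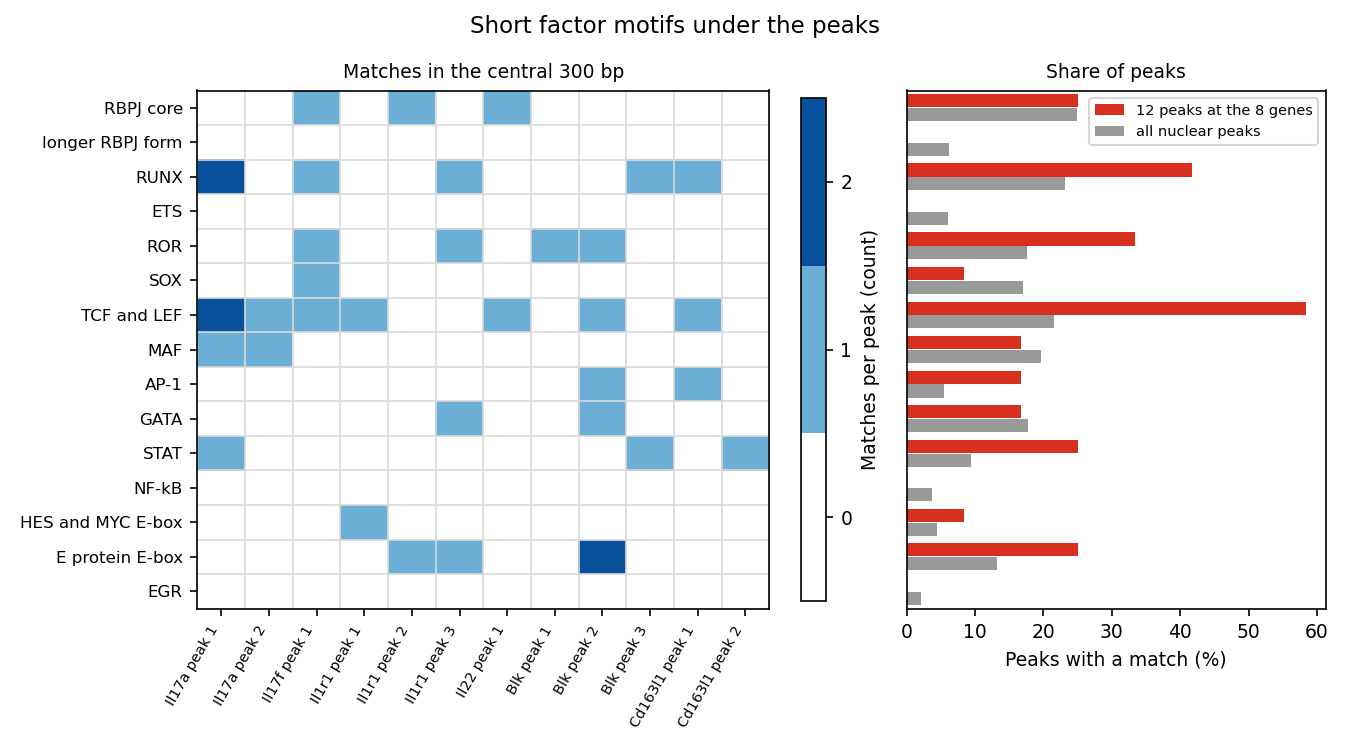
Matches to 15 short factor strings in the central 300 bp of the 12 peaks (left, count per peak) and the share of peaks with a match (right, same row order, %) for the 12 peaks and for all nuclear peaks. The RBPJ core is about as frequent in both, at 25% and 24.99%, and the TCF and LEF string is present in 58.3% of the 12 and in 21.6% of all nuclear peaks.

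The surrounding pathway was followed with 61 further genes, grouped by role. Of these 24 (39.3%) had a peak by the rule, against 31.7% of all protein-coding genes. When a peak counted only for the gene with the nearest start site, 16 of the 61 had one. That share was above the 15.3% of all protein-coding genes, and the difference was not tested. Of the 6 ligand genes (Il23a, Il12b, Il1a, Il1b, Il1rn and Ccl20), 0 had a peak. Among partner and decoy receptor chains 4 of 7 had one. Il12rb1, the chain shared by the interleukin-12 and interleukin-23 receptors, had a peak of score 702 at 1.30 kb from a start site. Il1rl1, the interleukin-33 receptor gene, had a peak of score 720 at 27.29 kb. Il1rl2, next to Il1r1, had Il1r1 peak 3 only, and Il12rb2 is described above.

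Among signalling genes 2 of 7 had a peak, namely the kinase gene Irak4 (score 805, at 25.97 kb and nearer to Pus7l) and Stat3. The Stat3 peak of highest score (1622) lay 43.57 kb from a Stat3 start and nearest to Stat5b. Among receptors for the cytokines 2 of 5 had one. Il22ra2, which encodes a soluble decoy for IL-22, had 6 peaks in its window, and the highest (score 1928) was nearest to Ifngr1. Il17rc, a chain of the IL-17 receptor, had 2, with the highest (1288) nearest to Creld1. Among other cytokine genes of these families 3 of 7 had one, namely Il17c, Il17d and Il10. The highest scores were 1163 for Il17c (at 49.15 kb, nearest to Rnf166) and 1172 for Il17d (at 43.94 kb, nearest to Eef1akmt1). The Il10 peak (677) was nearest to Il10 itself, at 35.73 kb.

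Other Src-family kinase genes gave 3 of 7. Src had a peak of score 2400 at 7.64 kb, while Lck and Fyn, the kinases of the T cell receptor, had promoter peaks of score 593 and 686, both lower than each of the 3 Blk peaks. Among scavenger and related receptor genes 3 of 4 had a peak. These were 5830411N06Rik, through the 2 Cd163l1 peaks, Cd163 (score 720, at 6.66 kb) and Cd5 (670, at 12.19 kb). On a list of 18 other genes known from gamma delta T cells that make interleukin-17, the count with a peak was 7. The highest score was that of Cxcr6 (3186, ranked 2 in the list, but 49.25 kb away and nearest to Ccr9). Next came Rora (1120, with 5 peaks), Zbtb16 (835) and Sox13 (828). The Zbtb16 peak overlapped the Zbtb16 gene body, but it lay 120.11 kb from a Zbtb16 start site and nearest to the start of Nnmt.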

How the data were processed

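ChIP-seq of Notch1 in 1 library of primary gamma delta T cells was analysed from the peak list deposited by its authors. Each line, without a header, holds a peak's coordinates, a score and a name beginning with MACS. The deposited score was used only to rank, filter and describe peaks within the list. Per the submitters' processing notes, Bowtie 1.0.0, SAMtools 0.1.18 and build mm10 were used. Version and settings of the peak caller, use of the input as its control, treatment of duplicate and multiply mapped reads, and the depth were not given in the sources used here. Libraries had 18 cycles of PCR, per the labels' protocols, which can raise duplicate reads.

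Peaks (BED starts shifted to count from 1; 3 mitochondrial peaks left out) were set on GRCm38 with GENCODE M21, and 0 reached past a chromosome end. Distances run from peak edge to start site. Motifs were matched with Python 3.11.15 and pysam 0.24.0 over windows of 300 bp centred on each peak. Sequences are from the RefSeq copy of GRCm38.p6. Window and motif code was checked on simulated data. Members and lists were chosen with earlier results of these data known. Named genes were all 8 members, up to 4 genes with a peak per pathway role by highest score, and the gene with the nearest start site to each peak.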

Additional observations from a re-analysis of the deposited data

How the results depend on the processing

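The count of members with a peak stayed between 4 and 6 under the settings given above, of which the RefSeq annotation was added after the data were seen. The 12 peaks fell to 7 with a window of 5 kb, and to 6 in the upper quartile. Density was 22.8 per Mb with 5 kb, 8.35 with 100 kb and 6.84 in the upper quartile. No all-gene density is given for those settings, so these values are not comparable with 2.83 per Mb. The pathway count of 24 of 61 became 12 of 61 with a window of 5 kb, where 13.9% of all protein-coding genes had a peak. It became 38 of 61 with 100 kb (46.2% of all protein-coding genes) and 9 of 61 in the upper quartile (10.8%). As a share of the 61, each count was above the all-gene percentage beside it, and the difference was not tested. The median nearest distance of 7.04 kb became 18.78 kb at or above the median score and 20.99 kb with coding start sites only, a setting added after the data were seen, under which Blk was 35.95 kb from a peak. Of 186 recomputed values 147 stayed within 1.5 times the main value (density within its Poisson interval) and 39 did not; the cause was not tested. No paired analysis was possible because there was 1 Notch1 library, and for the same reason no replicate could be left out. Depth is unknown, so a window with no peak, as at Il23r and Ccr6, does not show that Notch1 was absent there.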
